A study of Mus musculus with 90 samples.

Results

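The Reep genes encode receptor expression enhancing proteins of the endoplasmic reticulum (ER), and the 6 genes Reep1, Reep2, Reep3, Reep4, Reep5 and Reep6 are described here among the 24422 genes of the count table. The members were taken by name as a family because of Reep3, which was picked on its difference between matPlag1KO and WT embryos at the 2-cell (2c) stage. The values that chose Reep3 are therefore those of the 2c groups, and for Reep3 every comparison that includes a 2c group is given as a description without a test. All 6 members passed the filter on low counts, along with 16511 genes in all.

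Single mouse oocytes at metaphase II (MII), 2c embryos and 8-cell (8c) embryos were sequenced to ask how loss of the maternal transcription factor PLAG1 affects gene expression in the early embryo. The mice were of the CD-1 strain, and sexually mature females received 5 IU of pregnant mare serum and then 5 IU of hCG to induce superovulation. WT oocytes and embryos came from WT females, and the matPlag1KO group came from Plag1 knockout (KO) females, with embryos of both genotypes sired by WT studs, so that the embryos called KO below lacked the maternal allele and not the paternal one. Oocytes were uncultured and picked 21 to 23 h after hCG, whereas 2c embryos were picked at 45 to 47 h and 8c embryos at 71 to 73 h after fertilisation following culture in KSOM medium. Oocytes and zygotes had been treated with hyaluronidase to free them of cumulus cells. Each genotype had 16 oocytes, 14 2c embryos and 15 8c embryos, spread over library pools called plate A and plate B here. The labels do not name the donor females, so sibling embryos are unknown and the p-values measure the spread between these single oocytes and embryos.

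REEP proteins span the ER membrane as hairpins and help to bend it into tubules. The family falls into the group of Reep1 to Reep4, whose products also bind microtubules, and the group of Reep5 and Reep6, which are closer to the yeast protein Yop1. REEP3 and REEP4 keep ER membrane away from chromosomes during mitosis, and mutations of REEP1 cause hereditary spastic paraplegia in humans.

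After 12 libraries with a median CPM (counts scaled to a common library total) under 1 were left out, 16 WT and 14 KO oocytes, 11 WT and 11 KO 2c embryos, and 15 WT and 11 KO 8c embryos remained. The median total of gene counts was 395023 in WT oocytes (222357 to 2502421) and 649899 in KO oocytes (438233 to 1772844). The 2c libraries were the shallowest, with a median of 148473 in WT (116914 to 194287) and 163626 in KO (92475 to 256529). At 8c the medians were 564009 in WT (264386 to 696870) and 393914 in KO (214053 to 664771). A gene with 1 count in a 2c library thus has a level of several CPM, and low levels at 2c rest on few molecules. Levels are given as CPM on library sizes scaled by edgeR's TMM method.

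The targeted gene was examined first. Plag1 had 326 counts over the 16 WT oocytes, with a count in each, and 4 counts over the 14 KO oocytes. At 2c the order was the opposite, with 1 count over 11 WT embryos and 91 counts over the 11 embryos labelled matPlag1KO, of which 9 had a count. At 8c there were 10 counts in WT and 6 in KO embryos. Which parental allele the counts at 2c came from was not tested. The 2c libraries are referred to by their labels, and each direction at 2c below is drawn between the labelled groups.

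The stages were checked against marker lists. The summed level of 9 oocyte genes, led by Oosp1, was 10468 ± 6668 CPM in WT oocytes (SD, n = 16) and 135 ± 128 CPM in WT 8c embryos (SD, n = 15). At 2c it was 3456 ± 1402 CPM in WT and 4842 ± 1829 CPM in the embryos labelled matPlag1KO (SD, n = 11 each). The summed level of 13 genes of the 2c embryo was 367 ± 296 CPM in WT and 650 ± 424 CPM in KO 2c embryos (SD, n = 11 each), led by Zfp352 in both, and 4.13 ± 3.83 CPM in WT oocytes; Zscan4f, Tcstv1 and Tcstv3 had no count at 2c. The 10 genes listed for the 8c embryo summed to 10415 ± 1730 CPM in WT 8c embryos, but their top gene, Dppa3, also led the list in oocytes and at 2c. At 2c the sum was 5234 ± 1120 CPM in WT and 3858 ± 1810 CPM in KO (SD, n = 11 each). In oocytes it was above that, at 7118 ± 2433 CPM in WT (SD, n = 16) and 5984 ± 1845 CPM in KO (SD, n = 14). The part of these marker differences at 2c in the Reep values was not tested. The 10 markers of cumulus and granulosa cells, the first of which hyaluronidase was used to remove, summed to 20.8 ± 14.1 CPM in WT and 19.5 ± 11 CPM in KO oocytes, led by Cyp19a1, and 7 of these genes, among them Amh and Foxl2, had no count in WT oocytes. The same list summed to 46.4 ± 29.0 CPM in WT and 42.5 ± 26.4 CPM in KO 2c embryos, and to 23.97 ± 20.8 and 19.5 ± 11.9 CPM at 8c, led there by Amhr2 (41.3 and 32.9 CPM at 2c), which had no count in WT oocytes; the part of this in the values at 2c was not tested.

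Reep3 lies on chromosome 10 of mm9 from 66471937 to 66559736 on the minus strand. In WT 2c embryos its level ran from 0 to 141 CPM with a median of 7.07 CPM, and 7 of 11 embryos had a count. In the 2c embryos labelled matPlag1KO it ran from 0 to 9.75 CPM with a median of 0 CPM, and 1 of 11 had a count. The groups overlapped at 0, and a single WT library stood far above the others. Reep3 had 43 counts in the WT and 3 in the KO 2c libraries, a ratio of 16.2 per total count. The fitted log2 fold change was -3.89 ± 0.83 (SE) at 2c, the value on which Reep3 was picked; the share of all genes called at 2c, in either direction, was 4.92%.

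The Reep3 counts at 2c were concentrated in a few libraries. Of the 43 WT counts, 27 lay in the library of well C3 on plate B and 6 in that of well C3 on plate A. Without well C3 the mean was 6.72 ± 9.01 CPM (SD, n = 9) in WT and 0.886 ± 2.94 CPM (SD, n = 11) in KO, from 10 and 3 counts, and the log2 fold change was -2.21. That setting was chosen after the data were seen. On plate A the means were 11.2 CPM in WT and 1.95 CPM in KO, and on plate B 27.1 CPM and 0 CPM.

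Part of the Reep3 counts could not be assigned to Reep3. The table also holds Gm31763, annotated on the opposite strand from 66467823 to 66504074, which overlaps Reep3 over 32138 bases beginning 55662 bases from the annotated start of Reep3. Gm31763 was never counted above Reep3 in any of the 78 libraries, and it had exactly the same count in 16 of the 44 libraries with a Reep3 count, including 27 counts each in the highest 2c library. In total Gm31763 had 155 counts and Reep3 213, so up to 72.8% of the counts given to Reep3 may be counts given to both genes. Whether the counting used the strand is not given in the sources used here, and the counts of the 2 genes cannot be told apart. In GENCODE vM1, another annotation, Jmjd1c on the opposite strand also overlaps Reep3, but its span in the count table does not. If every Gm31763 count is taken from Reep3, 10 counts remain in WT and 0 in KO 2c libraries, 8 and 5 in oocytes, and 21 and 14 in 8c libraries.

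**Figure D1:**
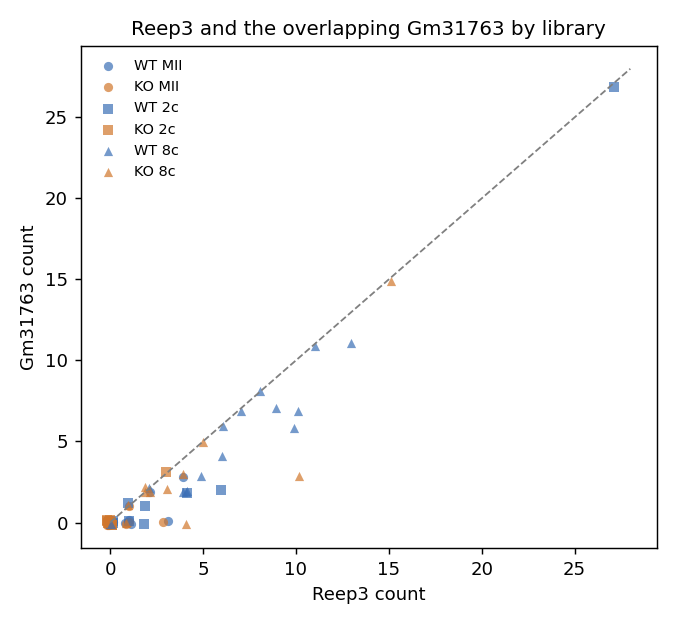
Counts of Reep3 (x axis) and of Gm31763 (y axis), which overlaps it on the opposite strand, in each of the 78 libraries, shifted slightly at random so that equal points can be seen. Colours are genotypes, symbols are stages and the dashed line marks equal counts; no library has a Gm31763 count above its Reep3 count, and the WT 2c library at the top right has 27 of each.

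Outside the 2c stage Reep3 was counted at low levels in oocytes and at higher levels at 8c. In WT oocytes it ran from 0 to 10.0 CPM (median 0 CPM) and in KO oocytes from 0 to 2.64 CPM (median 0 CPM), with a count in 7 of 16 and 4 of 14. At 8c it ran from 0 to 26.3 CPM (median 15.4 CPM) in WT and from 2.92 to 30.4 CPM (median 9.62 CPM) in KO. Nearly all 8c libraries had a count, 14 of 15 in WT and 11 of 11 in KO, and the genotypes overlapped at each of these stages. At 8c Gm31763 had 78 counts beside the 99 of Reep3 in WT, and 35 beside 49 in KO. The Reep3 count was above that of Gm31763 in 9 of 15 WT and 5 of 11 KO 8c libraries. By mean CPM the order was WT 2c (21.3 CPM), WT 8c (15.4 CPM), KO 8c (11.5 CPM), WT MII, KO 2c and KO MII. The first place of WT 2c rested on 1 library, without which its mean was 9.40 CPM, and by the median and the mean of log2(CPM + 1) WT 2c was below both 8c groups. On the log2(CPM + 1) scale KO 8c and WT MII were the only neighbours that differed by more than the larger SD of the pair.

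Reep1, the family member linked to spastic paraplegia, lies on chromosome 6 of mm9 from 71657675 to 71760699 on the plus strand. It ran from 42.5 to 280 CPM (median 80.4 CPM) in WT and from 20.5 to 154 CPM (median 50.5 CPM) in KO 8c embryos. Its range was 0 to 11.3 CPM (median 3.16 CPM) in WT oocytes, 0.853 to 14.9 CPM (median 5.36 CPM) in KO oocytes, 0 to 20.8 CPM (median 5.75 CPM) in WT 2c and 0 to 31.8 CPM (median 7.52 CPM) in KO 2c embryos. Every WT 8c library was above every oocyte and 2c library, while the lower KO 8c libraries overlapped the highest 2c libraries. The promoter of Reep1 is shown because it was the member with the highest mean level at 8c and the only one of the 6 members matched in the RefSeq promoter table used here. It covers chr6:71707431-71707730 of GRCm38.p6 on the plus strand, from 250 bases before to 50 bases after the start of the gene.
Reep1: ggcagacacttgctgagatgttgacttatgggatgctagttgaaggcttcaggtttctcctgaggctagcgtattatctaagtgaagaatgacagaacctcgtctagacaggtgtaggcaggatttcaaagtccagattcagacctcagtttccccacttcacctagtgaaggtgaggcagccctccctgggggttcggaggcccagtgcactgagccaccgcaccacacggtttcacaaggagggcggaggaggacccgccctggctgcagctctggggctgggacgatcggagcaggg
The window was searched on both strands for a narrowed form of the PLAG1 consensus, written as GGGGC or GAGGC, a gap of 6 to 8 bases and GGG, with any match to be set in capitals. It held no match to these letters, and 22.7% of the 32851 promoters of 300 bases in the table held one.

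Reep2, a member expressed mainly in neurons in the adult, lies on chromosome 18 of mm9 from 35000243 to 35007117 on the plus strand. Its level ran from 11.3 to 319 CPM (median 82.5 CPM) in WT oocytes and from 22.1 to 514 CPM (median 145 CPM) in KO oocytes. At 2c it ran from 0 to 80.7 CPM (median 28.1 CPM) in WT and from 26 to 90.2 CPM (median 37.0 CPM) in KO. At 8c no library exceeded 8.77 CPM, with medians of 2.10 CPM in WT and 0 CPM in KO and a count in 9 of 15 and 4 of 11 libraries. All oocytes were thus above all 8c embryos, and the 2c libraries overlapped the lower oocytes. Of the neighbours in the order KO MII, WT MII, KO 2c, WT 2c, WT 8c and KO 8c, only WT 2c and WT 8c were apart by more than the larger SD on the log2 scale.

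Reep4, which acts with Reep3 in mitosis, lies on chromosome 14 of mm9 from 70945058 to 70948742 on the plus strand. It ran from 4.00 to 170 CPM (median 49.2 CPM) in WT and from 17.5 to 186 CPM (median 56.2 CPM) in KO oocytes. The ranges were 4.56 to 44.7 CPM (median 21.8 CPM) in WT and 7.70 to 46.1 CPM (median 26.3 CPM) in KO 2c embryos, and 0 to 66.9 CPM (median 22.6 CPM) in WT and 0 to 20.5 CPM (median 8.61 CPM) in KO 8c embryos. Most libraries of every group had a Reep4 count, and all groups overlapped. No neighbours in its order of means differed by more than the larger SD.

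Reep5, a tubule-shaping member present in most tissues, lies on chromosome 18 of mm9 from 34504540 to 34533069 on the minus strand. Its level ran from 0 to 127 CPM (median 43.9 CPM) in WT oocytes and from 19.0 to 194 CPM (median 65.6 CPM) in KO oocytes. At 2c it ran from 0 to 38.2 CPM (median 6.93 CPM) in WT and from 0 to 74.1 CPM (median 21.8 CPM) in KO, and at 8c from 0 to 16.6 CPM (median 4.64 CPM) in WT and from 0 to 26.7 CPM (median 6.40 CPM) in KO. The KO median was the higher at each stage, and the ranges overlapped at each.

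Reep6, known for its role in rod photoreceptors, lies on chromosome 10 of mm9 from 79792890 to 79799186 on the plus strand. It ran from 31.4 to 160 CPM (median 62.8 CPM) in WT oocytes and from 20.1 to 99.2 CPM (median 59.2 CPM) in KO oocytes. It ran from 0 to 104 CPM (median 49.5 CPM) in WT and from 13 to 162 CPM (median 30.8 CPM) in KO 2c embryos, and the 8c medians were 7.89 CPM in WT (0 to 44.1) and 10.4 CPM in KO (0 to 51.5). The 2c libraries overlapped both the oocytes and the 8c embryos. For Reep5 and Reep6, as for Reep4, no neighbours in the order of means differed by more than the larger SD.

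**Figure D2:**
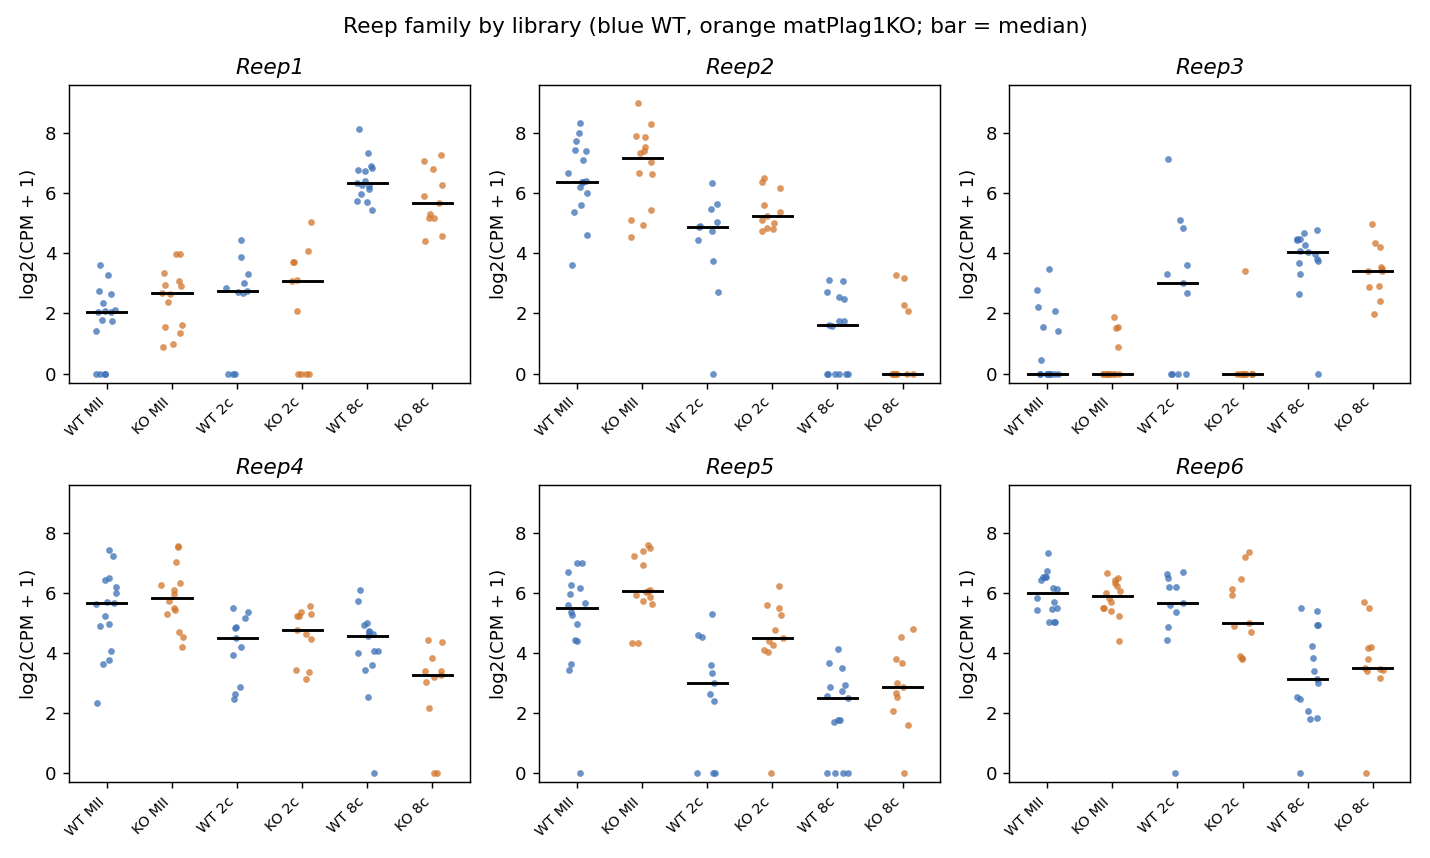
Level of each Reep gene as log2(CPM + 1) in each kept library (points; blue WT, orange matPlag1KO), by stage and genotype, with the group median as a bar. Reep1 lies high at 8c, with 42.5 to 280 CPM in WT, and Reep2 lies high in oocytes, whereas the Reep3 points at 2c are spread from 0 to 141 CPM in WT.

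The makeup of the family changed between the stages. The libraries were made from the 5′ ends of transcripts, and CPM were compared between members without division by length; reads were counted over annotated genes, and whether they lay at the starts was not tested. In WT oocytes Reep2 took 35.6 ± 16.6% of the summed CPM of the 6 members and Reep1 1.51 ± 2.04% (SD, n = 16). In WT 8c embryos Reep1 took 60.3 ± 11.7% and Reep2 1.70 ± 1.92% (SD, n = 15), and in KO 8c embryos 55.6 ± 18.7% and 2.00 ± 3.32% (SD, n = 11). At 2c Reep6 had the largest mean share in WT, 36.4 ± 20.0%, whereas in KO Reep6 (30.4 ± 14.3%) and Reep2 (29.8 ± 11.9%) had nearly the same mean share (SD, n = 11 each), and Reep2 had the higher median CPM. The same members led in WT at each stage when CPM were divided by the annotated exon length, a setting added after the data were seen, while in KO 2c embryos Reep2 passed Reep6. The summed level was 300 ± 133 CPM in WT oocytes, 148 ± 65.3 CPM in WT 2c and 159 ± 71.7 CPM in WT 8c embryos, against 393 ± 188, 171 ± 91.2 and 117 ± 61.5 CPM in KO.

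**Figure D3:**
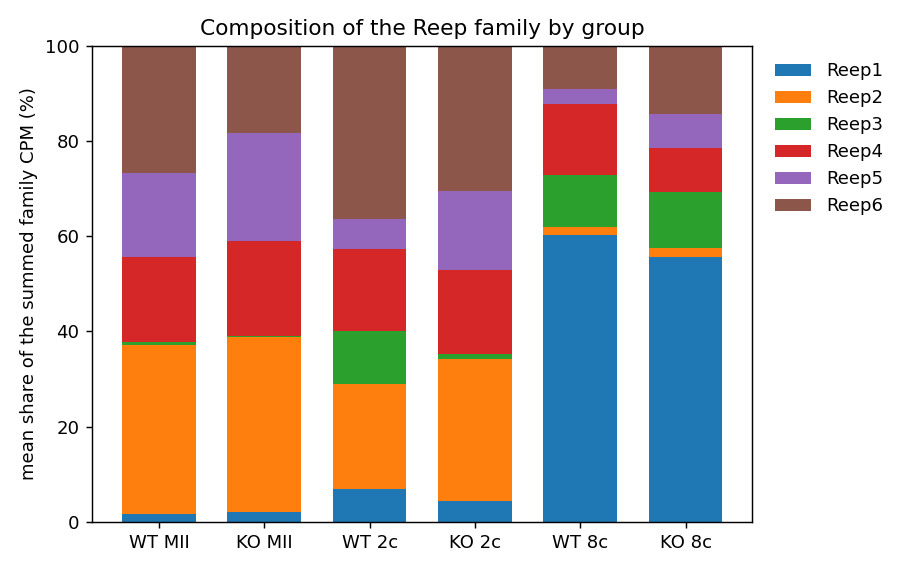
Mean share of each member in the summed CPM of the 6 Reep genes (y axis, percent) for each stage and genotype. Reep2 has 35.6% in WT oocytes and 1.70% in WT 8c embryos, and Reep1 has 1.51% and 60.3%.

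Stages were compared on libraries scaled to their spike-in RNA, so that a change is one per oocyte or embryo, in which the number of cells and the RNA per cell cannot be told apart. On this scale the middle gene of the table had a log2 fold change of -1.46 in WT and -1.42 in KO for MII to 2c, and of 0.53 and 0.30 for 2c to 8c. It was -0.67 in WT and -0.95 in KO from MII to 8c, whereas TMM scaling placed all of these medians between -0.31 and 0.14. A gene was called where the quasi-likelihood test of edgeR, with p adjusted by Benjamini-Hochberg over all genes, stayed under 0.05.

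From MII to 2c, Reep2, Reep4, Reep5 and Reep6 fell in both genotypes. Thus 4 of the 5 tested members fell and 0 rose in WT, where 51.3% of all genes fell and 14.1% rose, and the same 4 fell in KO, where 50.3% of all genes fell and 13.5% rose. The log2 fold change in WT was -4.17 ± 0.69 (SE, adjusted p = 1.82e-07) for Reep5, -3.70 ± 0.60 (SE, adjusted p = 1.65e-07) for Reep2 and -3.25 ± 0.58 (SE, adjusted p = 1.08e-06) for Reep4 in edgeR. These 3 members were also called lower with TMM scaling, at -2.21, -1.94 and -1.37. Reep6 had a smaller change of -1.74 ± 0.49 in WT and -1.87 ± 0.50 in KO (SE), close to the median of all genes, and was not called with TMM scaling (-0.27 and -0.03). Reep1 was not called, and its log2 fold change of -0.71 in WT and -1.01 in KO turned to 0.90 and 0.62 with TMM scaling. Reep3 is given as a description, with 2.20 in WT and -0.51 in KO, the latter turning to 0.85 with TMM scaling.

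From 2c to 8c, Reep1 rose and Reep2 fell. In WT 1 of 5 tested members rose against 31.9% of all genes, and 1 fell against 16.2% of all genes; in KO the same members were called, against 29.1% of all genes that rose and 19.5% that fell. The log2 fold change of Reep1 was 4.78 ± 0.60 (SE, adjusted p = 1.44e-10) in WT and 3.66 ± 0.58 (SE, adjusted p = 1.34e-07) in KO in edgeR. That of Reep2 was -2.54 ± 0.63 (SE, adjusted p = 0.000504) in WT and -3.30 ± 0.71 (SE, adjusted p = 7.49e-05) in KO. Both were called in the same direction with TMM scaling. Reep4, Reep5 and Reep6 were not called on the spike-in scale, and with TMM scaling Reep6 was called lower in WT (-1.93) and all 3 in KO (-1.50, -1.60 and -1.71). Reep3, as a description, had 0.46 in WT, which turned to -0.46 with TMM scaling, and 3.63 in KO.

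Between MII and 8c, the comparison that leaves out the 2c stage, all 6 members were called in both genotypes, with 2 higher and 4 lower at 8c. In WT 27.1% of all genes rose and 43.6% fell, and in KO 24.1% rose and 45.2% fell. Reep2 had the largest fall, -6.23 ± 0.62 (SE, adjusted p = 2.58e-15) in WT and -7.03 ± 0.75 (SE, adjusted p = 7.99e-14) in KO in edgeR. The log2 fold change of Reep5 was -4.41 ± 0.60 in WT and -4.45 ± 0.68 in KO, that of Reep4 -2.30 ± 0.48 and -4.04 ± 0.61, and that of Reep6 -2.70 ± 0.46 and -2.74 ± 0.52 (SE). Reep1 rose by 4.06 ± 0.48 (SE, adjusted p = 3.74e-12) in WT and 2.66 ± 0.50 (SE, adjusted p = 2.44e-06) in KO. All of these directions were the same with TMM scaling. Reep3 rose by 2.67 ± 0.61 (SE, adjusted p = 8.45e-05) in WT and 3.11 ± 0.72 (SE, adjusted p = 9.17e-05) in KO, but it was no longer called when every count of Gm31763 was taken from it: its log2 fold change was then 1.07 (adjusted p = 0.163) in WT and 1.53 (adjusted p = 0.0795) in KO, a setting chosen after the data were seen.

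**Figure D4:**
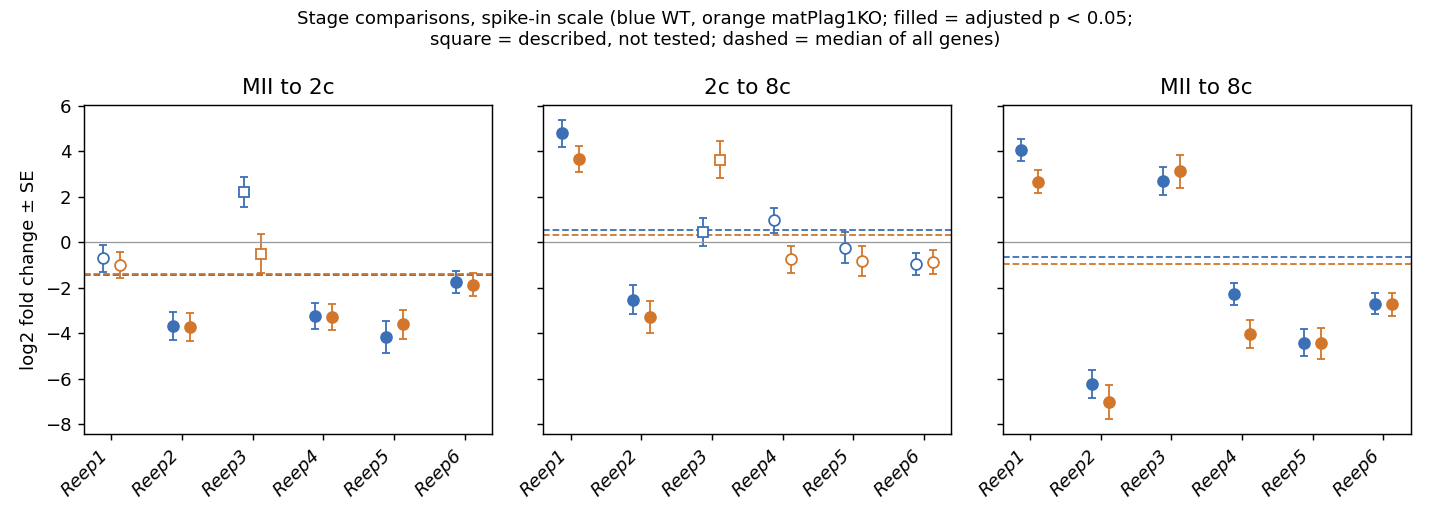
Log2 fold change ± SE of each Reep gene between stages (blue WT, orange matPlag1KO) on the spike-in scale; filled symbols passed an adjusted p under 0.05, squares are Reep3 values given without a test, and dashed lines are the median of all genes. From MII to 2c, Reep2, Reep4 and Reep5 lie below the median of -1.46 in WT; Reep1 is at -0.71 there and turns to 0.90 with TMM scaling.

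Between the genotypes none of the tested members was called in the main fit. At MII 0 of 6 members were called, against 0.781% of all genes, and at 8c 0 of 6, against 1.74% of all genes. At 2c 0 of the 5 members other than Reep3 were called, against 4.92% of all genes. At an unadjusted p under 0.05, edgeR's test gave 1 member at each stage. At MII, 2c and 8c, 1690, 3380 and 2363 of all 16511 genes passed the same threshold. DESeq2 called 0 members at MII and 8c and 1 at 2c, where it called 1134 of all genes. At MII it called 33 genes higher and 49 lower, and at 8c 267 higher and 81 lower. A fit with the oocyte well as a block and the plate as a term called 1 member at MII, Reep5, and 809 genes in all. Of these, 658 were higher and 151 lower in KO.

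The member with the lowest p at 2c was Reep5, at a mean of 29.3 ± 20.4 CPM in KO and 10.95 ± 12.2 CPM in WT (SD, n = 11 each). Its log2 fold change was 1.38 ± 0.57 (SE, adjusted p = 0.135) in edgeR, and DESeq2 gave 1.64 (adjusted p = 0.0444). The KO mean was the higher on both plates, 27.7 against 9.64 CPM on plate A and 30.6 against 11.7 CPM on plate B. At MII Reep5 had 0.78 ± 0.38 (SE, adjusted p = 0.471) and at 8c 0.89 ± 0.54 (SE, adjusted p = 0.471) in edgeR. The direction was thus the same at each stage with TMM and with spike-in scaling, and the adjusted p of the main edgeR fit did not pass the threshold at any. With the oocyte well as a block and the plate as a term, Reep5 was called at MII, at 0.89 (adjusted p = 0.00056 in edgeR). That fit called 658 genes higher and 151 lower in KO, against 51 and 78 in the main fit. The KO library had the higher Reep5 level in 7 of 7 wells with KO on plate A. It did so in 2 of 7 wells with KO on plate B. The wells were not taken as pairs, a choice that depends on the centring of the check described below.

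Among the others, Reep4 at 8c had the lowest p, with 9.08 ± 6.77 CPM in KO (SD, n = 11) and 23.2 ± 17.4 CPM in WT (SD, n = 15) and a log2 fold change of -1.30 ± 0.47 (SE, adjusted p = 0.136) in edgeR. The KO mean was the lower on plate A (5.84 against 16.1 CPM) and on plate B (13 against 29.4 CPM). Reep3 had -1.10 ± 0.67 (SE, adjusted p = 0.619) at MII and -0.37 ± 0.55 (SE, adjusted p = 0.844) at 8c in edgeR, stages that did not enter its choice; at MII it was 0.098 on plate A alone and -2.52 on plate B alone. Reep1 had 0.67, 0.38 and -0.55 at MII, 2c and 8c, and its mean at 8c was 95.2 CPM in KO and 95.0 CPM in WT on plate A but 33.5 and 102 CPM on plate B. Reep2 had 0.47, 0.62 and -0.08. Reep6 had -0.17 at MII, which turned to 0.38 with spike-in scaling, 0.06 at 2c and 0.28 at 8c. Whether the stage changes differed between the genotypes was tested by interaction, and no tested member was called, against 1.89% of all genes for MII to 2c, 0.557% for 2c to 8c and 0.242% for MII to 8c; Reep4 from MII to 8c differed by -1.75 (adjusted p = 0.313) and Reep1 by -1.41 (adjusted p = 0.401) in edgeR.

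**Figure D5:**
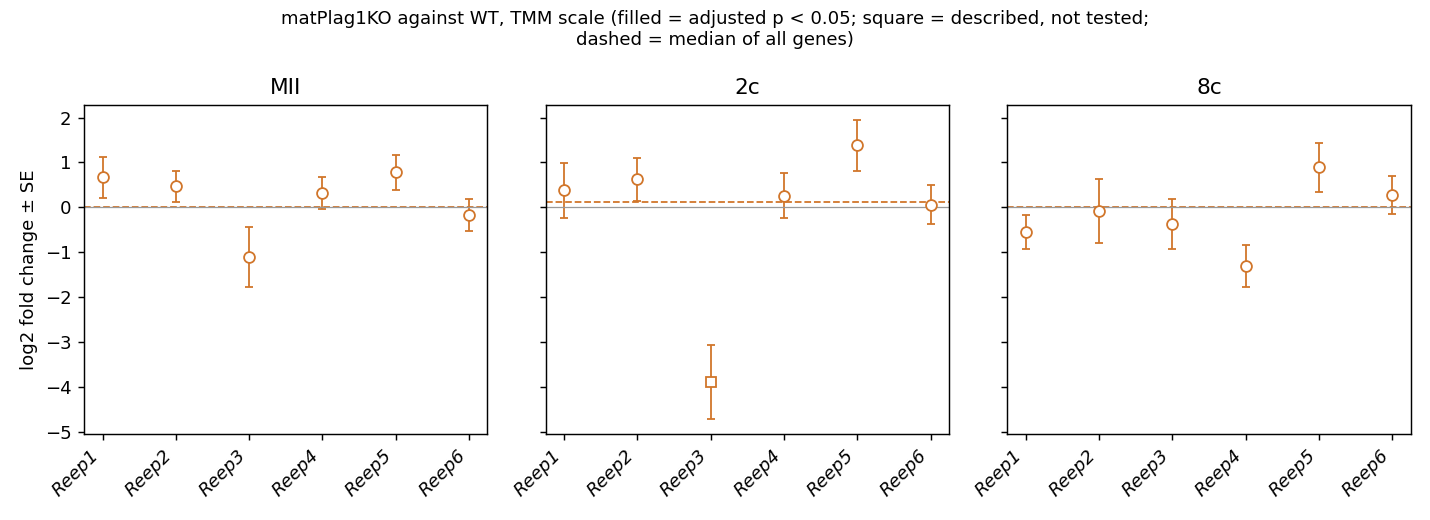
Log2 fold change ± SE of each Reep gene in matPlag1KO against WT at MII, 2c and 8c on the TMM scale; open circles did not pass an adjusted p under 0.05, the square is Reep3 at 2c, given without a test, and dashed lines are the median of all genes. The square lies at -3.89 and the circles between -1.30 and 1.38; Reep6 at MII is at -0.17 and turns to 0.38 with spike-in scaling.

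Other genes of the ER were followed as lists. Of 23 measured genes that shape the ER, such as reticulons and atlastins, 0 were called between genotypes at MII and 2c and 1 at 8c, against 0.781%, 4.92% and 1.74% of all genes, with median log2 fold changes of 0.21, -0.10 and -0.03 beside 0, 0.12 and 0 for all genes. The gene called was Rtn3, a reticulon, with 3.97 CPM in KO and 18.2 CPM in WT 8c embryos and a log2 fold change of -2.13 ± 0.56 (SE, adjusted p = 0.0259) in edgeR. Of 18 ER resident genes, 2 were lower in KO at 2c, as were 433 of all 16511 genes, and 0 were called at MII and 8c; their medians were 0.51, -0.18 and -0.22. Hspa5, the ER chaperone BiP, had 43.3 CPM in KO and 192 CPM in WT (log2 fold change -2.16 ± 0.44, SE, adjusted p = 0.00178), and Ssr3, a subunit of the translocon-associated complex, 41.9 and 106 CPM (-1.32 ± 0.38, SE, adjusted p = 0.0268) in edgeR. With spike-in scaling Hspa5 was still called (adjusted p = 0.0228), and Ssr3 (adjusted p = 0.164) and Rtn3 (adjusted p = 0.089) were not.

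The same lists were followed across the stages on the spike-in scale, first in WT. From MII to 2c, 14 of 18 resident genes fell and 0 rose, and 10 of 23 shaping genes fell and 2 rose, where 51.3% of all genes fell and 14.1% rose; the median log2 fold changes were -1.89 and -1.01 beside -1.46 for all genes. With TMM scaling 5 resident genes fell and 5 rose, and 7 shaping genes fell and 8 rose, beside 3814 and 4540 of all 16511 genes. From 2c to 8c, 14 of 18 resident genes rose and 0 fell, and 8 of 23 shaping genes rose and 2 fell (31.9% and 16.2% of all genes), with medians of 1.62 and 1.27 beside 0.53 for all genes; with TMM scaling 9 resident genes rose and 2 fell, and 6 shaping genes rose and 5 fell (3475 and 4767 of all genes). From MII to 8c, 4 resident genes rose and 6 fell, and 8 shaping genes rose and 8 fell (27.1% and 43.6% of all genes), with medians of 0.35 and 0.03 beside -0.67; with TMM scaling the numbers were 12 and 3, and 9 and 7, beside 5949 and 5996 of all genes. In KO, 0 resident genes rose and 16 fell from MII to 2c (2 and 9 with TMM), 13 rose and 0 fell from 2c to 8c (10 and 0), and 3 rose and 7 fell from MII to 8c (7 and 5), with medians of -2.77, 2.08 and -0.64 beside -1.42, 0.30 and -0.95 for all genes. Of the shaping genes in KO, 2 rose and 13 fell (6 and 7 with TMM), 5 rose and 2 fell (4 and 7), and 6 rose and 10 fell (10 and 8), with medians of -1.28, 0.59 and -0.12. Over the same steps in KO, 13.5%, 29.1% and 24.1% of all genes rose and 50.3%, 19.5% and 45.2% fell.

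Several of these list genes stood at the ends of the range in WT. Rtn2, a reticulon, and Zfyve27, the ER protein protrudin, had no count in WT oocytes and a mean of 24.6 and 8.85 CPM at 2c, so no fold change is given. Rab3gap2, a subunit of a complex that acts on Rab18, and Atl1, an atlastin that fuses ER tubules, had the largest falls from MII to 2c, at -4.62 ± 0.57 and -4.26 ± 0.56 (SE). Atl1 fell further from 2c to 8c (-2.18 ± 0.63, SE). Spast, the microtubule-severing spastin, was not called from MII to 2c (0.19), where TMM scaling called it higher (1.66). It fell from 2c to 8c (-2.21 ± 0.44, SE). Over the same step Ssr4, of the translocon-associated complex, and Rpn1, of the oligosaccharyltransferase, had the largest rises, 5.12 ± 0.46 and 4.22 ± 0.80 (SE). From MII to 8c Atl1 (-6.44 ± 0.57, SE) and Rab3gap2 (-4.41 ± 0.48, SE) were the lowest, Ssr4 rose by 5.77 ± 0.40 (SE), and Zfyve27 reached 12.4 CPM. All of these directions were the same with TMM scaling.

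Genes with the highest Pearson r to 2 members on log2(CPM + 1) were named over the 78 libraries, which share stages, plates and depth. For Reep3 they were Gm31763 (r = 0.89), Timm22 (r = 0.75), Rrm2 (r = 0.75), Epb41l4aos (r = 0.75) and Mir7238 (r = 0.74), and the first of these is the overlapping gene. Spearman's rho over the same libraries was 0.87, 0.74, 0.71, 0.71 and 0.73, which ranked them 1, 3, 15, 16 and 4. Reep2 was the member with the highest mean level over these 78 libraries, but it had the lowest mean at 8c in both genotypes. For Reep2 the genes were Tet3 (r = 0.88), Epn2 (r = 0.87), Meis2 (r = 0.87), Mapk3 (r = 0.87) and Fam160a1 (r = 0.87), with rho of 0.90, 0.86, 0.84, 0.81 and 0.83, which ranked them 1, 4, 32, 125 and 59. Tet3, for example, had a mean of 1228 CPM in WT oocytes, 278 CPM in WT 2c and 37.5 CPM in WT 8c embryos. Among the members, Reep1 and Reep2 ran opposite to each other (r = -0.72), and Reep2 ran with Reep5 (r = 0.69) and Reep6 (r = 0.65).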

How the data were processed

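The authors deposited raw counts per gene and for 92 spike-in RNAs in 90 libraries, with molecular identifiers joined and no normalization. Per the study's methods, reads were mapped to mm9 with TopHat and counted over annotated genes with HOMER (versions not given in the sources used here). Here, 12 libraries were dropped for a median CPM under 1. A gene was tested if 5 or more of the 78 remaining libraries reached 1 CPM. An edgeR 4.0.16 fit in R 4.3.3 (glmQLFit, glmQLFTest) held a mean for each of the 6 groups and was made once for each scaling. TMM factors served the 3 genotype comparisons and the spike-in total served the 6 stage comparisons. An adjusted p under 0.05 was called. DESeq2 1.42.0 was an alternative, beside changes of the filter, test, scaling, plate and libraries. SE is the size of the log2 fold change over the square root of F. No library was a copy of another in its group (chi-square per degree of freedom at least 3.54). The scripts were tested on simulated data.

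The members and lists were chosen with earlier results of these data known. Named from the lists are the genes called between genotypes and, for each WT stage step, the 2 highest and 2 lowest log2 fold changes among called genes. For likeness, the 5 genes with the highest Pearson r were taken. Exon lengths are from GENCODE vM1.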

Additional observations from a re-analysis of the deposited data

How the results depend on the processing

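Of the values of single members under alternatives other than leaving out 2c libraries, 484 kept their direction and their side of the threshold, 14 changed sign, 8 became called, 6 lost the call and 4 Reep3 descriptions moved. None of the 14 that changed sign had been called. With the other scaling these were Reep6 at MII between genotypes (0.38), Reep1 from MII to 2c (0.90 in WT, 0.62 in KO), and Reep3 from MII to 2c in KO (0.85) and from 2c to 8c in WT (-0.46). On plate A alone they were Reep3 (0.10) and Reep4 (-0.61) at MII, Reep4 (-0.45) and Reep6 (-0.19) at 2c, and Reep4 (-0.0286) and Reep5 (0.24) from 2c to 8c in WT. On plate B alone they were Reep2 at 8c (0.48) and Reep1 from MII to 2c in WT (0.86), and with all libraries kept Reep1 at 2c (-0.0665). The number of members called changed with TMM scaling from 4 to 3 (MII to 2c, both genotypes, Reep6 lost) and from 2 to 3 in WT and 5 in KO (2c to 8c). It changed on plate A alone from 4 to 5 (WT, MII to 2c) and 6 to 5 (KO, MII to 8c), on plate B alone from 2 to 3 (WT, 2c to 8c) and 6 to 5 (WT, MII to 8c), without the Gm31763 counts from 6 to 5 (MII to 8c, both genotypes), and with DESeq2 from 0 to 1 at 2c (Reep5). Of all 16511 genes, plate A alone called 1181 higher and 6986 lower (WT, MII to 2c), and 2679 and 6418 (KO, MII to 8c). Plate B alone called 4199 and 2012 (WT, 2c to 8c), and 4913 and 4568 (WT, MII to 8c). DESeq2 called 733 higher and 401 lower at 2c. Leaving out each of the 22 2c libraries in turn called 0 members, with log2 fold changes of -0.17 to 0.66 for Reep1, -0.24 to 0.19 for Reep6 and -6.32 to -2.71 for Reep3. Over all genes, the genes called ranged from 45 to 809 at MII (129 as reported), 0 to 1140 at 2c (812; 363 without well C3, and 451 to 1140 without 1 library) and 6 to 413 at 8c (287), the 0 and the 6 on plate A alone, and fell on single plates to 6919 from 10800 (WT, MII to 2c), 3949 from 7950 (WT, 2c to 8c) and 4231 from 8025 (KO, 2c to 8c). On the spike-in scale the calls in KO were 97 higher and 40 lower at MII (51 and 78 with TMM), 191 and 94 at 2c (379 and 433), and 91 and 15 at 8c (200 and 87). Across stages with TMM, higher and lower calls from MII to 2c were 4540 and 3814 in WT (2326 and 8474 as reported) and 4799 and 3192 in KO (2231 and 8306), from 2c to 8c 3475 and 4767 (5269 and 2681) and 3501 and 5008 (4812 and 3213), and from MII to 8c 5949 and 5996 (4478 and 7199) and 5708 and 5617 (3983 and 7458). Wells were tried as a replicate block in oocytes. Deviations of the 14 same-well pairs from the group means correlated with r from -0.06 to 0.76 (median 0.34, 8418 genes). The wells were not taken as pairs because r was not over 0.1 in 2 of them. Yet 12 of the 14 libraries of plate A correlated best with their own well. The main fit at MII thus leaves out any pairing by well. Each pair lies across the plates, and group means leave plate differences in. After that result was seen, deviations were also taken from the mean of group and plate, and r then ran from 0.15 to 0.78. The 2 pairs not over 0.1, in wells A1 and A2, had r of 0.23 and 0.15 there, so the check depends on the centring. With the well as a block and the plate as a term, 1 member was called, Reep5 at 0.89 (adjusted p = 0.00056 in edgeR), and 809 genes in all. Of these, 658 were higher and 151 lower in KO, against 51 and 78 as reported. Division by a length column could not be run, because the table has none.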

Other observations

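In oocytes, 14 wells held a kept library of each genotype, on different plates. The log2 level of Reep2 in a well on plate A ran with that in the same well on plate B (r = 0.78, n = 14 wells), as did that of Reep4 (r = 0.78) and Reep6 (r = 0.72). For Reep5 r was 0.43, for Reep3 0.12 and for Reep1 -0.08. These are descriptions over wells that may share a barcode and a position, and their part in the levels was not tested. The KO library was the higher in 10 of the 14 wells for Reep4, 9 for Reep1 and Reep5, 7 for Reep2, 6 for Reep6 and 2 for Reep3, which was lower in 6 and at 0 in both libraries in 6. For Reep5 these were 7 of the 7 wells with the KO library on plate A and 2 of the 7 with it on plate B.

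Of the 6 libraries of 2c embryos that were left out, 1 had a Reep3 count, a library labelled matPlag1KO with 1 count among 84921.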
